A study of Mus musculus with 6 samples.

Results

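The antigen presentation genes of mouse liver were compared between *Txndc5*-deficient (KO) mice and wild type (WT) mice. A gene belonged to the set when its symbol in the expression table started with H2-, the prefix of the mouse major histocompatibility complex (MHC), with pseudogene symbols ending in -ps left out. The companions *B2m*, *Tap1*, *Tap2*, *Tapbp*, *Cd74*, *Ciita*, *Nlrc5* and *Erap1* were added. This gave 38 of the 16123 genes in the table. By role they were 3 class Ia heavy chain genes, 16 class Ib genes and copies, 5 class I assembly genes, 4 class II chain genes, 6 class II loading genes and 2 transactivators. The other 2 were *H2-K2*, a transcribed pseudogene, and *H2-Ke6*, which encodes a hydroxysteroid dehydrogenase and carries the prefix only for its place in the complex.

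RNAseq was run on 3 pools of liver RNA per genotype, each pool holding RNA of 3 mice. The WT mice were C57BL/6Rj and the KO mice were C57BL/6JRj-Txndc5<em2Mdnp>/Ciba, a line without exon 3 of *Txndc5* that was made by genome editing and derives from 1 founder male. All mice were 2-month-old males that were then fed a purified chow diet for 4 weeks and fasted for 16 h before sacrifice. *Txndc5* itself, which encodes a protein disulfide isomerase of the endoplasmic reticulum, had an expression value of 2697 in WT and of 90.8 in KO. The study asked what the loss of this protein changes in the liver transcriptome, and the values below are those of the antigen presentation genes.

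MHC class I molecules pair a heavy chain with β2-microglobulin and show peptides from inside the cell to CD8 T cells. The peptides enter the endoplasmic reticulum through the TAP transporter, are trimmed there by ERAP1, and are loaded with the help of tapasin. Class II molecules are made of an α and a β chain, travel with the invariant chain CD74 to endosomes, and receive peptides there under the control of DM and DO. In liver, class I is made by hepatocytes and by the other cells of the tissue, while class II is mostly a product of Kupffer cells, dendritic cells and B cells.

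Whole liver was sequenced, so that fewer cells of a type and less RNA per cell cannot be told apart. The table gives 1 value per genotype and gene, without an error. For 15 of the 38 members, all weakly expressed, the reads of each library were recovered from those values. The other 23 members were too abundant for this or allowed more than 1 set of reads, and have no spread between libraries. Which pool each of them came from is not known, and they are called WT-A, WT-B, WT-C, KO-A, KO-B and KO-C in the order of their size factors, which were 1.22, 0.879, 0.818, 1.31, 1.04 and 0.886. A first principal component held 46.6% of the variance of 2547 genes. On it WT-A had a loading of 0.74 and KO-A of 0.36. The loadings of WT-B, WT-C, KO-B and KO-C were -0.21, -0.23, -0.30 and -0.37. Both A libraries thus lay on the other side from the rest, and WT-A was the furthest out. The libraries had between 44040160 and 46050030 clean reads.

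The promoters of these genes were searched for motifs of known control elements, without a measure of how alike the promoters are. RefSeq promoters, here 250 bases before and 50 bases after the start of the gene in GRCm38.p6, matched 23 members. A search on both strands used the letters TGACG, the core of the X2 element bound by the CREB family, and ATTGG, which read on the other strand is the CCAAT box bound by NF-Y. ATTGG was present in 21 of the 23 promoters (91.3%) and in 37.4% of all 32851 promoters, and TGACG in 9 of 23 (39.1%) and in 20.8% of all. The 3 heavy chain genes with the highest levels (*H2-Q10*, *H2-K1* and *H2-D1*), *H2-Q7* as a neighbor of *H2-Q10*, an α and a β gene of class II, and *B2m* are shown as the 130 bases before the start, 5′ to 3′ on the strand of the gene. Capitals mark TGACG and ATTGG on either strand.
H2-K1 (chr17:34000334-34000463, minus strand): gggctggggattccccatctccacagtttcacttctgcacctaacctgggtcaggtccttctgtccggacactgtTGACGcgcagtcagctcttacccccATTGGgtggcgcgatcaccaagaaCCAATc
H2-D1 (chr17:35262964-35263093, plus strand): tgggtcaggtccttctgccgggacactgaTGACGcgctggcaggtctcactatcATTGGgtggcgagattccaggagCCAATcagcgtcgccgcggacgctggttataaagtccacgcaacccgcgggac
H2-Q7 (chr17:35439025-35439154, plus strand): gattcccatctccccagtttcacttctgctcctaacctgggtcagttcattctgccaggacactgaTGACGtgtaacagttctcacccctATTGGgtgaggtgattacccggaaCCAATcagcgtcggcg
H2-Q10 (chr17:35469959-35470088, plus strand): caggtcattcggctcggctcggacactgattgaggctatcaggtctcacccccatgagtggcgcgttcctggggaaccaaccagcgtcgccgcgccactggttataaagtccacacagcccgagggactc
H2-Aa (chr17:34287824-34287953, minus strand): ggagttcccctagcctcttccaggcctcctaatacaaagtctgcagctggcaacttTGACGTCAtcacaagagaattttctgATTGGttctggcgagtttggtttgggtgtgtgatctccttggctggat
H2-Eb1 (chr17:34305737-34305866, plus strand): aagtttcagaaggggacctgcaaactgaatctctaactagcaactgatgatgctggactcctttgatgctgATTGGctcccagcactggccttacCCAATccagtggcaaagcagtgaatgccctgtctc
B2m (chr2:122147557-122147686, plus strand): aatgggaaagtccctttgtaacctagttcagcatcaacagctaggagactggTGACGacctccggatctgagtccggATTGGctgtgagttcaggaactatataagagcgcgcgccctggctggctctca
In *H2-K1*, *H2-D1* and *H2-Q7* a TGACG was followed by ATTGG and then by its complement CCAAT, in the same order. *H2-Q10*, the class Ib gene with the highest level in liver, held neither motif in its 300-base window. *Erap1* was the other promoter without ATTGG. Of the heavy chain genes with levels between those of *H2-D1* and *H2-Q7*, which are not shown, *H2-T23* held ATTGG without TGACG and *H2-T22* held both.

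Class I RNA was far more abundant than class II RNA in both genotypes. On the scale of expression value per kb of transcript, *B2m*, the common light chain of class I, was at 23118 in WT and 26290 in KO, which placed it at rank 77 of the 16123 genes in WT. *H2-Q10*, a class Ib gene whose product is secreted by the liver, was at 22193 and 22695 per kb (rank 81). The classical heavy chain genes *H2-K1* and *H2-D1* were at 12217 and 7287 per kb in WT (ranks 139 and 217). *H2-Q10* alone made up 46.9% of the summed level per kb of the 20 class I heavy chain genes and copies in WT and 47.3% in KO. With *H2-K1* and *H2-D1* the share was 88.2% in WT and 89.2% in KO. The summed heavy chain level was 2.05 times that of *B2m* in WT and 1.82 times in KO. It was 45.5 times the summed level of *H2-Aa*, *H2-Ab1* and *H2-Eb1* in WT and 52.1 times in KO. The invariant chain gene *Cd74*, at 1256 per kb in WT and 1263 in KO, was the class II member with the highest level, 2.74 times *H2-Ab1* in WT and 3.01 times in KO.

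**Figure D1:**
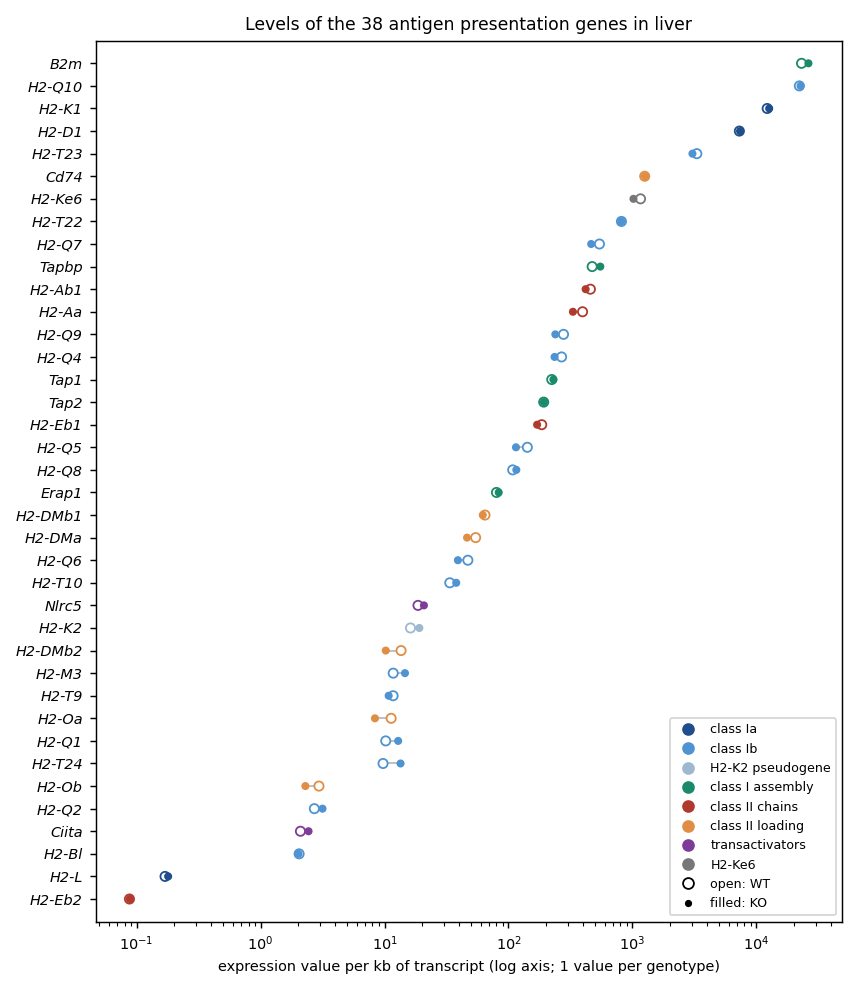
Expression value per kb of transcript (log axis) of the 38 members, with open circles for WT and filled circles for KO, colored by role and ordered by the WT level. The levels run from 23118 per kb for *B2m* to 0.088 per kb for *H2-Eb2*, and the circles of the genotypes lie close together along the whole range.

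At the low end, *H2-L* had 1 read in all 6 libraries, in KO-C. *H2-L* is a class Ia gene that the H2 haplotype of C57BL/6 mice lacks. *H2-Eb2*, a further class II β gene, had 2 reads, 1 in WT-A and 1 in KO-B. *H2-Bl*, a transcribed pseudogene, had 16 reads. All 3 were below the minimum mean value of 10 used for the ratios.

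Ratios were read where the mean of both genotypes was 10 or more. None of the 32 members there reached an absolute log2 ratio of KO over WT of 0.5, a share of 0% beside 10.4% of the 11367 genes that passed the same minimum. Of all genes, 2.48% were past the fold with higher values in KO and 7.9% with lower values. Of the members, 17 had a higher and 15 a lower value in KO, beside 42.3% of all genes with a higher and 57.7% with a lower value. The split became 23 higher and 9 lower when the ratios were scaled by the total of the recovered reads, which moves every log2 ratio up by 0.13 and leaves 63.2% of all genes with a higher and 36.8% with a lower value. The median log2 ratio was 0.0066 over the members and -0.047 over all genes. The members ran from -0.43 (*H2-Oa*) to 0.47 (*H2-T24*), and these extremes were weakly expressed genes whose libraries overlapped between genotypes. Ratios of the deposited values are drawn toward 0 for genes with few reads. By the means of recovered reads, the log2 ratios of these 2 genes were -0.69 and 0.61, past the fold. The share of all genes past it by recovered reads was not counted. Together the members made up 0.509% of all expression values in WT and 0.563% in KO. The summed value had a log2 ratio of 0.053 for the members and of -0.094 for all genes, so the lower total in KO adds to the change in share.

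**Figure D2:**
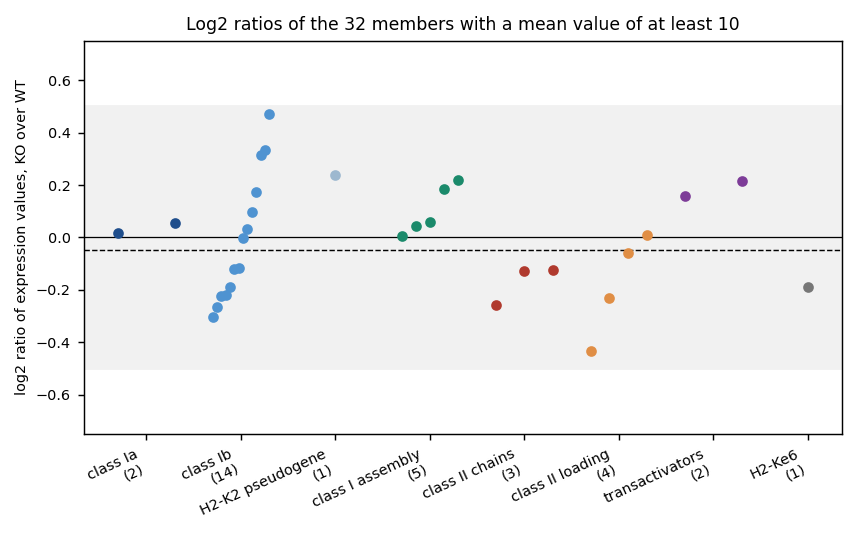
Log2 ratio of expression values, KO over WT, for the 32 members whose mean value was 10 or more, one point per gene in columns by role, with the number of genes in parentheses. The shaded band spans log2 ratios of -0.5 to 0.5 and the dashed line is the median of all genes, -0.047. All points lie within the band, the 5 assembly genes at or above 0 and the 3 class II chain genes below it.

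The classical heavy chain genes had almost the same value in both genotypes. *H2-K1* was at 20391 in WT and 21159 in KO (log2 ratio 0.05), and *H2-D1* at 12650 and 12812, a log2 ratio of 0.02. *H2-Q10* was likewise at 32690 in WT beside 33430 in KO (log2 ratio 0.03). Their reads per library could not be recovered, so these differences have no error.

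The class Ib genes were mixed, with 6 of 14 at a higher and 8 at a lower value in KO. *H2-T23*, which encodes Qa-1, the ligand of inhibitory receptors on NK cells, was at 4354 in WT and 4013 in KO (log2 ratio -0.12). *H2-T22*, which encodes a ligand of γδ T cell receptors, was at 1433 and 1430. Its near copy *H2-T10*, annotated as a transcribed pseudogene, was at 96.8 and 109. The Q series from *H2-Q4* to *H2-Q9* includes the genes of the Qa-2 antigen. Its members had lower KO values in 5 of 6 cases, beside 57.7% of all genes. *H2-Q7* was at 701 in WT and 601 in KO (log2 ratio -0.22), *H2-Q9* at 428 and 367 (-0.22), and *H2-Q4* at 481 and 422 (-0.19). *H2-Q5*, a transcribed pseudogene, was at 168 and 136 (-0.30), and *H2-Q6* at 46.1 and 38.3 (-0.27). *H2-Q8* was the exception, at 109 and 117 (0.10). The summed value of these 6 genes was 1932 in WT and 1681 in KO (log2 ratio -0.20).

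Reads of these near copies could be divided between the genes by the counting. In the GENCODE M21 transcripts, which hold 34 of the 38 members, 14.01% of the 100-base windows of *H2-Q5* also occurred in another gene, most often in *H2-Q7* (170 windows). The share was 11.98% for *H2-Q7*, which had 270 windows in common with *H2-Q10*, and 10.8% for *H2-Q6*, with 166 windows in common with *H2-Q7*. *H2-T22* and *H2-T10* had 261 windows in common, and 8.86% and 7.06% of their windows occurred in any other gene. *H2-DMb1* and *H2-DMb2* had 179 (11.3% and 10.28%). *H2-Ke6* had 61.6% of its windows in common with other genes, mostly with a readthrough transcript over the same locus. For *H2-D1* and *H2-K1* the shares were 3.59% and 0.957%. No window of the class II chain genes, *B2m*, *Tap1*, *Tap2*, *Cd74*, *Ciita*, *Nlrc5* or *Erap1* occurred elsewhere. These shares are over the windows of all transcripts of a gene. *H2-Q8*, *H2-Q9*, *H2-L* and *H2-T9* were not among the transcripts searched, so windows in common with them were not counted. The values of the Q and T series are uncertain as to which copy the reads came from.

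The class I assembly genes had higher KO values in 5 of 5 cases, beside 42.3% of all genes. Their log2 ratios were 0.005 to 0.22, with none past the fold. The 3 other scalings move every log2 ratio up, so they could not change these signs. *Tapbp*, which encodes tapasin, was at 1300 in WT and 1513 in KO (log2 ratio 0.22). *B2m* was at 19835 and 22557, a log2 ratio of 0.19. The transporter genes *Tap1* and *Tap2* were at 658 and 479 in WT and at 679 and 481 in KO, log2 ratios of 0.04 and 0.005. *Erap1*, the trimming peptidase, was at 321 and 335, a log2 ratio of 0.06. The 5 genes were too abundant for the recovery of reads, and the authors' own comparison was not used, so the differences were not set against the spread between pools here.

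The class II chain genes had lower KO values in 3 of 3 cases, beside 57.7% of all genes, and no test of them was made here. *H2-Aa*, the α chain of I-A, was at 429 in WT and 359 in KO (log2 ratio -0.26). *H2-Ab1*, its β chain, was at 546 and 500, a log2 ratio of -0.13, and *H2-Eb1*, the β chain of I-E, at 310 and 284, a log2 ratio of -0.12. Scaling by the total of the recovered reads brought *H2-Ab1* and *H2-Eb1* to log2 ratios of 0.004 and 0.008, while *H2-Aa* stayed at -0.13. *Cd74*, whose product escorts these chains, was at 1603 in WT and 1613 in KO (log2 ratio 0.01).

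Of the peptide loading genes of class II, *H2-DMa* was at 90.1 in WT and 76.8 in KO (log2 ratio -0.23). Its value allowed 2 different sets of reads, so its libraries could not be told. *H2-DMb1*, which encodes the β chain of DM, had normalized reads of 74.3, 70.5 and 105 in WT-A, WT-B and WT-C and of 86.1, 69.5 and 82.4 in KO-A, KO-B and KO-C. The libraries of the genotypes overlapped, KO-B being the lowest and WT-C the highest of the 6, with means of 83.3 ± 19.0 in WT and 79.3 ± 8.71 in KO (SD, n = 3; exact permutation *p* = 0.8, two-sided). *H2-DMb2*, its near copy, had 7.35, 23.9 and 3.67 in WT and 7.62, 5.79 and 7.90 in KO. Only WT-B was high, and the means of 11.6 ± 10.8 and 7.11 ± 1.15 were not apart (exact permutation *p* = 0.9, n = 3).

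DO, the inhibitor of DM, is known as a product of B cells and some dendritic cells. *H2-Oa*, its α chain, had 8.16, 14.8 and 15.9 normalized reads in WT-A, WT-B and WT-C and 11.4, 5.79 and 6.77 in KO-A, KO-B and KO-C. The genotypes overlapped through both A libraries, with means of 12.9 ± 4.18 in WT and 7.999 ± 3.01 in KO (exact permutation *p* = 0.2, n = 3). *H2-Ob*, its β chain, had 6.53, 6.82 and 12.2 in WT and 3.81, 4.83 and 7.90 in KO. Here too the KO mean was lower, 5.51 ± 2.13 beside 8.53 ± 3.21, and the libraries overlapped (exact permutation *p* = 0.3, n = 3). Each of these values rests on 41 to 63 reads in all libraries.

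The transactivators had higher KO values, beside 42.3% of all genes, without passing the fold. The other scalings move every log2 ratio up and could not change this direction. *Nlrc5*, which drives class I genes, was at 129 in WT and 144 in KO (log2 ratio 0.16). *Ciita*, which drives class II genes, was at 10.8 and 12.6, a log2 ratio of 0.22. Its normalized reads were 15.5, 4.55 and 11.01 in WT-A, WT-B and WT-C and 20.6, 9.65 and 9.03 in KO-A, KO-B and KO-C. In both genotypes the A library was highest, and the means of 10.36 ± 5.51 and 13.1 ± 6.49 were not apart (exact permutation *p* = 0.7, n = 3).

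Among the weakly expressed class Ib genes, *H2-T24* had 26.9, 13.6 and 19.6 normalized reads in WT and 38.9, 21.2 and 31.6 in KO. KO-B lay below WT-A, so the genotypes overlapped (20.1 ± 6.66 in WT, 30.6 ± 8.86 in KO; exact permutation *p* = 0.2, n = 3). *H2-Q1* had 13.1, 15.9 and 31.8 in WT and 32.003, 24.1 and 24.8 in KO. WT-C was close to the highest KO library (exact permutation *p* = 0.3, n = 3). *H2-M3*, which presents formylated peptides, had 8.16, 25.02 and 14.7 in WT and 11.4, 30.9 and 22.6 in KO. The A library was lowest in both genotypes, as in 10.6% of all recovered genes (exact permutation *p* = 0.5, n = 3). The pseudogene *H2-K2* had 43.3, 10.24 and 7.34 in WT and 46.5, 26.1 and 6.77 in KO. The A library was high in both genotypes and the means of 20.3 ± 19.96 and 26.4 ± 19.9 were not apart (exact permutation *p* = 0.8, n = 3). *H2-Q6* had 79.2, 27.3 and 35.5 in WT and 49.5, 47.3 and 14.7 in KO (exact permutation *p* = 0.7, n = 3), and *H2-T9* had 11.4, 19.3 and 28.1 in WT and 19.0, 19.3 and 13.5 in KO (exact permutation *p* = 0.7, n = 3). For *H2-Q6* the A library was again the highest in each genotype. *H2-Q2* and *H2-Bl* had 20 and 16 reads in all, and their libraries overlapped too.

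**Figure D3:**
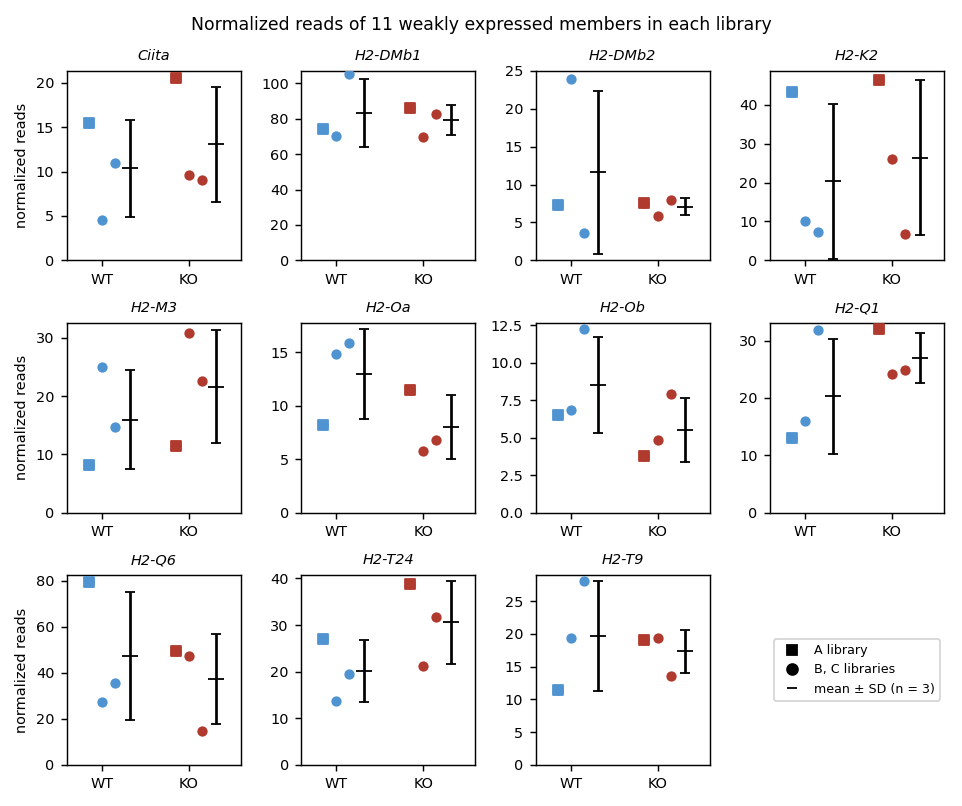
Normalized reads (reads divided by the size factor of the library) of the 11 members with a recovered sum of at least 20 normalized reads, 1 panel per gene, with squares for the A libraries, circles for B and C, and bars for the mean ± SD of 3 libraries. The genotypes overlap in every panel, and in *H2-K2* the A libraries reach 43.3 and 46.5, above B and C.

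None of these 11 members was without overlap between genotypes, beside 5.92% of the 5167 genes with recovered reads and the same minimum. With 3 libraries per genotype the exact permutation test cannot give a *p* below 0.1. In limma fitted to 3307 genes, 1 gene had an adjusted *p* under 0.05 (0.0302%), *Moap1*, which is no member, and 63 genes had an unadjusted *p* under 0.05. The 8 members in that fit had log2 differences from -0.63 ± 0.45 (SE; *H2-Oa*) to 0.59 ± 0.44 (*H2-T24*), and each had an adjusted *p* of 0.999. None of the 8 had an unadjusted *p* under 0.05.

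Without both A libraries, 3 of the 11 members no longer overlapped, *H2-Oa* and *H2-T9* with lower and *H2-T24* with higher reads in KO. With 2 libraries per genotype, 34.1% of all genes with recovered reads did not overlap. The mean of *H2-Oa* was then 15.3 in WT and 6.28 in KO, and limma gave a log2 difference of -1.17 ± 0.43 (SE) with an adjusted *p* of 0.940. Over all genes with recovered reads and that minimum, 39.5% had the A library highest in both genotypes, and 4 of these 11 members did, namely *Ciita*, *H2-K2*, *H2-Q6* and *H2-T24*. The part of these libraries in the results was not tested.

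Along chromosome 17, where 29 members have a position in the annotation, the genes fall into blocks apart by over 500000 bases. The first block, from *Tapbp* to *H2-Eb2* (33919478 to 34341410), holds the K region and the class II region with the TAP genes among them. Of its 12 members with a mean of 10 or more, 5 had higher and 7 lower KO values, with a median log2 ratio of -0.09. *Tap1* and *Tap2*, which lie between the DM genes and *H2-Ob*, had ratios of 0.04 and 0.005 amid neighbors with lower KO values. In the second block, from *H2-D1* to *H2-Q10* (35263094 to 35474563), 3 of 7 had higher and 4 lower values, with a median of -0.19. The third block, from *H2-T24* to *H2-T10* (36003471 to 36121444), had 2 higher and 2 lower.

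**Figure D4:**
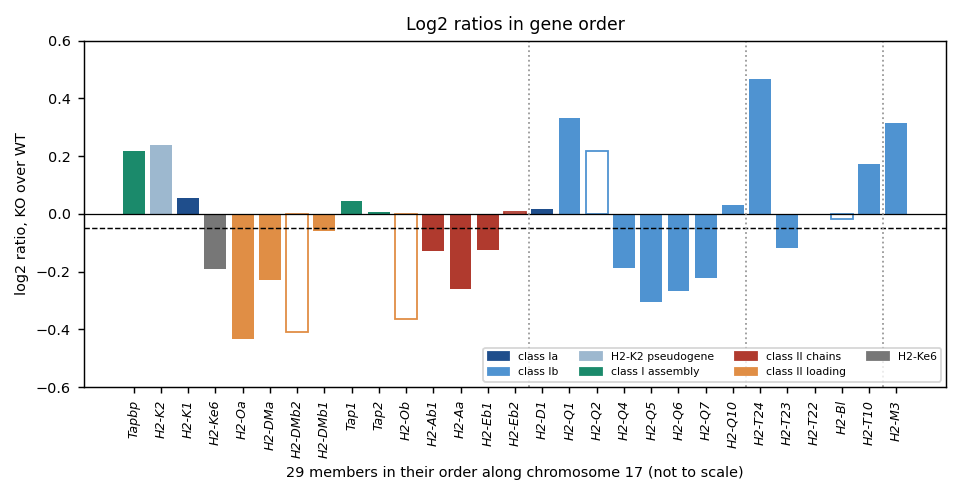
Log2 ratio, KO over WT, of the 29 members on chromosome 17 in their order along it (not to scale), colored by role, with dotted lines between blocks and open bars for genes with a mean value under 10. The dashed line is the median of all genes, -0.047. Neighboring class II genes from *H2-Ab1* to *H2-Eb1* and Q genes from *H2-Q4* to *H2-Q7* lie below 0, and *H2-T24* has the highest bar at 0.47.

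Other genes of the pathway were taken from lists of 46 genes, of which 44 were in the table and 39 had a mean of 10 or more. Higher KO values were found for 17 and lower values for 22, and 2 were past the fold, both with lower values in KO, beside 7.9% of all genes. These were *Rfxank*, a subunit of the RFX complex that binds class II promoters, at 387 in WT and 244 in KO (log2 ratio -0.66), and *Creb1*, whose product binds TGACG, at 51.3 and 33.3 (-0.62). For *Creb1* the libraries had normalized reads of 131, 21.6 and 14.7 in WT and of 45.7, 9.65 and 31.6 in KO, so that the high WT value came from WT-A. *Rfxank* has no recovered reads.

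Of the 5 genes of the immunoproteasome and its activator, which shape the peptides for class I, 4 had lower KO values, beside 57.7% of all genes. *Psme1*, which encodes a subunit of the activator and had the highest value, was at 1210 and 1128. The 6 chaperones and translocon genes of class I loading were split, with 2 higher and 4 lower, and *Calr*, which encodes calreticulin, was at 12826 in WT and 13440 in KO. Among 7 endosomal genes of class II processing, 4 were higher and 3 lower, with *Ctsd*, the cathepsin with the highest value, at 8821 and 8427. Of the 4 interferon-γ receptor and kinase genes with a mean of 10 or more, 2 were higher, and *Jak1* was at 854 and 919. The 5 class I-like genes outside the complex had 3 higher values, and *Azgp1* was at 25874 and 23737. Of the co-stimulation genes only *Cd86* reached the minimum, at 13.3 and 11.7.

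The summed markers of the cells that carry class II had no common direction. Of the 8 dendritic cell markers, all with recovered reads, the summed normalized reads were between 50.04 and 79.2 in WT and between 57.6 and 77.7 in KO. The 6 B cell markers summed to 56.3, 122 and 120 in WT-A, WT-B and WT-C and to 61.7, 68.5 and 90.3 in KO-A, KO-B and KO-C, and the 6 T and NK cell markers to 45.7, 62.6 and 136 in WT and 74.7, 44.4 and 63.2 in KO. The B cell sum was higher in WT-B and WT-C than in every other library, as was the case for *H2-Oa*. This order did not hold for *H2-Ob*, where KO-C at 7.90 lay above WT-B at 6.82. It did not hold for *H2-DMb1* or *H2-DMb2* either. The Kupffer cell markers summed to 2916 in the WT values and 3368 in the KO values, with 5 of 7 higher in KO and *Adgre1* and *Marco* past the fold, beside 2.48% of all genes past it in that direction. The libraries of *Marco* overlapped, with 13.9, 69.4 and 48.9 normalized reads in WT and 52.6, 49.2 and 130 in KO (limma adjusted *p* = 0.999). The 5 red cell markers summed to 118783 and 180301, all with higher KO values and 3 past the fold. Of all genes, 42.3% had higher KO values and 2.48% were past the fold in that direction. None of the red cell markers has recovered reads, so their spread between libraries is not known. Sinusoidal endothelium markers summed to 1955 and 1902. The 6 hepatocyte markers summed to 2395276 in WT and 2196664 in KO, with 2 higher and 4 lower in KO. Among them *Alb* was at 1329546 and 1332576, and *Apoa1* at 667133 and 505509. Of the 7 listed T and NK cell markers, *Ncr1* was not in the table, so its reads are not known. No marker that the table holds was at 0 in all libraries. The part of these cell types in the values of the members was not tested.

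**Figure D5:**
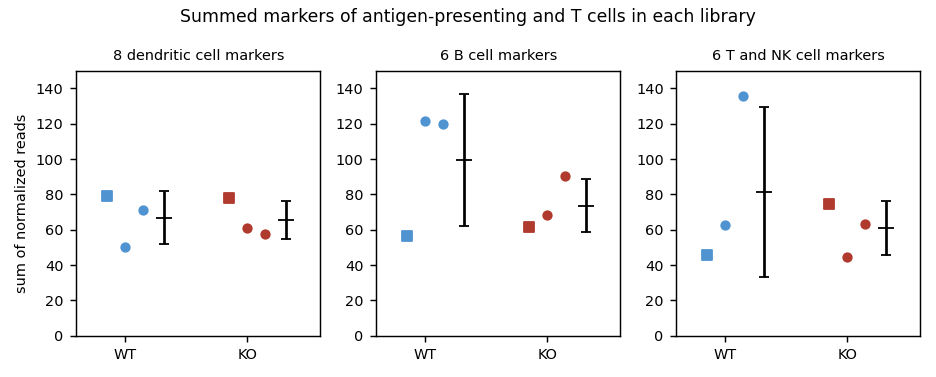
Sum of normalized reads of the dendritic cell, B cell, and T and NK cell markers in each library, with squares for the A libraries, circles for B and C, and bars for the mean ± SD of 3 libraries. The dendritic cell sums overlap between 50.04 and 79.2, and WT-B and WT-C have the highest B cell sums at 122 and 120.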

How the data were processed

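Liver RNA of 6 pools, 3 per genotype, was sequenced from poly(A) RNA. The submitters' processing notes name HISAT2, Bowtie2, RSEM, StringTie, Cufflinks, GATK and the build mm10, without their role. Read counts per library and quality percent values were deposited by the authors as their sequencing service gave them. Gene by gene, the signal deposited by the authors is a single number per genotype. It is in reads after division by size factors as DESeq2 makes them, over 3 libraries, and its ratio between genotypes is drawn toward 0 for genes with few reads. The columns of the authors' own comparison (log2 ratio, *p* and adjusted *p*) were not used. The planned branch for 1 value per genotype was followed.

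Log2 ratios were computed from those values without a pseudocount, where the mean of both values was 10 or more, and 0.5 was taken as the fold. The mean of both values equals the mean of normalized reads over 6 libraries. Sets of whole reads that give it were therefore searched by enumeration for sums of up to 600 normalized reads. A set was kept when it was the only one within 2 times the rounding of the deposited value. Where several sets fitted and the absolute log2 ratio was above 0.5, a set was also kept if it alone had the deposited direction. No member was past that ratio, but the shares over all recovered genes may include such sets. A set was kept for 8063 of 8081 genes with sums up to 400 (99.8%) and for 478 of 979 above (48.8%). The search was checked on simulated data, which did not cover the rule on direction. If RSEM made the counts, the reads may be rounded estimates. limma 3.58.1 in R 4.3.3 was fitted to log2(normalized reads + 1) of genes with sums of 60 to 400, with Benjamini-Hochberg adjustment over all genes in the fit, and checked on simulated reads. Differences between the genotype means of single members had two-sided exact permutation tests. Motifs and 100-base windows were searched in RefSeq promoters and GENCODE M21 transcripts of the same build. Where a gene had several promoters, the one with the most downstream start was used.

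Every member was accounted for. All members with a mean of 10 or more or with recovered reads could be named, and of the other pathway genes those past the fold or else the one with the highest value of each list. The members, the lists and the tests were chosen with earlier results of these data known. No source says that pools were independent beyond their mice, so that *p* values measure the spread between pools. Python 3.11.15 was used for the rest.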

Additional observations from a re-analysis of the deposited data

How the results depend on the processing

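The count of 0 members past the fold held at minimum mean values of 1, 50 and none, at a log2 ratio of 1 and with pseudocounts of 1 and 10. It was 5 at a log2 ratio of 0.3, where 27.6% of all genes were past it, and 1 (*H2-T24*) when ratios were centred on the median of all genes or, an alternative chosen after seeing the data, scaled by the total of all table values. The members' median log2 ratio ran from 0.0013 to 0.1 over these settings. All of these settings used the deposited values, whose ratios are drawn toward 0 for genes with few reads. By recovered reads, *H2-Oa* (log2 ratio -0.69) and *H2-T24* (0.61) were past the fold of 0.5. Below the minimum mean value of 10, *H2-DMb2* (-0.71), *H2-Ob* (-0.63) and *H2-Q2* (0.52) were past it too. The share of all genes past it by recovered reads was not counted. Scaling by the total of the recovered reads moved the median of all genes in the limma fit from -0.07 to 0.06, and the signs of *H2-Ab1*, *H2-Eb1*, *H2-DMb1*, *H2-T22*, *H2-T23* and *H2-T9* with it. The 1 limma call became 0 with a minimum sum of 100, 2 without both A libraries, and 0 to 1 without any single library. A maximum sum of 600, also added after seeing the data, kept it at 1. No member was called under any of these settings. Members without overlap were 0 at the narrower tolerance, 3 without both A libraries, and 0 to 3 without any single library, the 3 being without WT-A. The limma difference of *H2-T9* changed sign to 0.017 under scaling by the total of recovered reads. With single libraries left out, differences ran from -0.43 to 0.19 for *H2-T9*, from -0.68 to 0.18 for *H2-Q6*, from -0.092 to 0.69 for *Ciita* and from -0.15 to 1.16 for *H2-K2*, so that their signs are not settled, and the cause was not tested. No paired analysis was possible because the genotypes share only pool number 2 in the labels and the recovered libraries carry no pool number. Abundant members have no spread between libraries, and the depth of weak members, 1 to 497 reads over 6 libraries, limits what could be seen.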
